A study of Mus musculus with 4 samples.

Results

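The array used here tiles large intergenic noncoding RNA (lincRNA) regions, stretches of the mouse genome that were put on the design as candidate sources of long noncoding RNA. Of the 3540 such regions that carry a strand in their name, 1067 had probes for both genome strands and are described here. They were found by name alone, as every region whose coordinates occur once with the ending F (forward strand) and once with the ending R (reverse strand). The other 2473 regions had probes for 1 strand. Of the 1067, 77 held a probe of a RefSeq mRNA, so not all lie clear of protein-coding genes. RNA came from CD4+ T cells that had been cultured with antibodies to CD3e and CD28, TGFb and IL-6, the conditions of T helper 17 (Th17) differentiation, and sorted as positive for CD4 and for a red fluorescent IL-17F reporter. There were 2 arrays of wild-type cells (WT, miR-155+/+) and 2 of miR-155 knockout cells (KO, miR-155-/-), and the reporter and the culture were common to both. The sort keeps the cells that expressed the reporter, so levels describe that fraction of each culture, and in such bulk samples fewer cells of a type and less RNA per cell cannot be told apart. The design text calls the arrays biological replicates, but no label ties one to an animal or culture, so the p-values rest on how far these arrays spread, and that spread may be technical.

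Long noncoding RNAs are transcribed by RNA polymerase II, often spliced and polyadenylated, and carry no long open reading frame. Both strands of a stretch of genome can be transcribed, from divergent promoters, from antisense genes or by read-through past the end of a gene. A probe for each strand reads the strands apart but does not give the source of the RNA. miR-155 is a microRNA of activated lymphocytes, processed from the noncoding transcript Mir155hg, and Th17 cells are the helper T cells that make IL-17.

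The 1067 regions were 5026 to 508115 bases long (median 17901) and held 9682 probes of 60 bases, 4893 on the F strand and 4789 on the R strand. A strand had 1 to 10 probes (median 5), and 262 strands rested on 1 probe. Every probe with a position lay on the strand its name gives, 4862 on plus and 4708 on minus in mm9 coordinates. The probes of a region covered a small window of it, spanning a median of 2800 bases or 22.2% of the region. In 664 regions an F and an R probe overlapped by at least 30 bases, which made 1582 pairs that read the same stretch of genome from opposite strands.

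The pairs below are shown because the results turn on them. The letters are those of the deposited array files, 5′ to 3′, and capitals mark the stretch in which the R probe is the exact reverse complement of the F probe, so the capitals of a pair are the same double-stranded DNA. The first pair belongs to chr11:22681800-22707775, which held the brightest R strand of all. The second belongs to chr6:129151512-129208737 beside Cd69, and the third to chr11:35805295-35817263, where the F strand alone was above background.
Forward probe at chr11:22686754-22686813: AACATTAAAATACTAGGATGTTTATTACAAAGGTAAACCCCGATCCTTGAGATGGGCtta
Reverse probe at chr11:22686751-22686810: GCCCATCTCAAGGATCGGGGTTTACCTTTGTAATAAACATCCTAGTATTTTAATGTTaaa
Forward probe at chr6:129182803-129182862: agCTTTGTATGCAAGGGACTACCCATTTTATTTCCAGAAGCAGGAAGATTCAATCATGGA
Reverse probe at chr6:129182805-129182864: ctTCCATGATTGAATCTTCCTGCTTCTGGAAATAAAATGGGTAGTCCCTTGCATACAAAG
Forward probe at chr11:35810479-35810538: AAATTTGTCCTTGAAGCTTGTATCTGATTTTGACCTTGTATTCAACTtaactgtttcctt
Reverse probe at chr11:35810466-35810525: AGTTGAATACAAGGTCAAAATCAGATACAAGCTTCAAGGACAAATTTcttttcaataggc
The shared stretch was 57 bases in the first pair, and the F probe averaged -4.98 over the 4 arrays where the R probe averaged 8.73 (log2 level, with the 75th percentile of the array at 0). It was 58 bases in the second pair, at -3.87 for F and 3.82 for R. It was 47 bases in the third, at 5.53 for F and -7.30 for R, a level below background. The same DNA thus gave signals at opposite ends of the scale, depending on the strand that was read.

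The next pairs come from regions described further down in the comparison of genotypes. They belong to chr19:53517903-53540753, to chr5:35975265-35982561 and to chr16:84702353-84710928, the region next to the miR-155 locus.
Forward probe at chr19:53519337-53519396: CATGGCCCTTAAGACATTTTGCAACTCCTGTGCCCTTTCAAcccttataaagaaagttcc
Reverse probe at chr19:53519318-53519377: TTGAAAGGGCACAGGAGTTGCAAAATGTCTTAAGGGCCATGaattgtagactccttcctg
Forward probe at chr5:35977053-35977112: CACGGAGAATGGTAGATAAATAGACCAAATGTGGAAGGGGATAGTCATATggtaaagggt
Reverse probe at chr5:35977043-35977102: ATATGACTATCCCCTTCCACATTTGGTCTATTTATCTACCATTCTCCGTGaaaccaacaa
Forward probe at chr16:84706005-84706064: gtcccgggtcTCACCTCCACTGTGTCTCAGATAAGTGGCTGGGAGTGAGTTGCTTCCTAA
Reverse probe at chr16:84706015-84706074: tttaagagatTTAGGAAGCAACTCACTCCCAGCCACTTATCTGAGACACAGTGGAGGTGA
On the 41 bases shared in the chr19:53517903-53540753 pair, KO minus WT was 0.01 for the F probe and 2.62 for the R probe (log2). On the 50 bases shared in the chr5:35975265-35982561 pair it was 1.15 for F and -0.93 for R. On the 50 bases shared in the chr16:84702353-84710928 pair it was -0.65 for F and -0.73 for R, so there the probes of both strands read lower in the knockout.

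Most of these regions gave signal from both strands. A strand was counted as detected on an array if at least 1 of its probes was well above background there, by the flag in the scanner files. On all 4 arrays, 760 of 1067 regions (71.2%) had both strands detected, 131 the F strand alone, 130 the R strand alone and 46 neither. Regions with 1 strand on every array and the other on none were rarer, 51 for F and 56 for R. These counts lean on the number of probes: 51.5% of strands with 1 probe were detected on all arrays, against 77.8% with 2 to 3 probes, 89.2% with 4 to 5 and 95.7% with 6 to 10. When all probes of a strand had to be above background, both strands were detected in 70 regions, and when a share of at least 0.5 of the probes had to be, in 337.

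The signals were low beside those of genes. Between 49.8% and 59.3% of F probes and between 56.2% and 65.7% of R probes were above background on each array, compared with 68.2% to 73.3% of gene probes, and the second knockout array was the lowest in each case. Probes above background on all 4 arrays had a median log2 level of -2.80, close to the -2.81 of regions with 1 strand and far from the 0.02 of gene probes. Per region, the brighter strand had a median level of -3.61 and the dimmer -5.60. Median GC content was 45% on each strand.

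**Figure D1:**
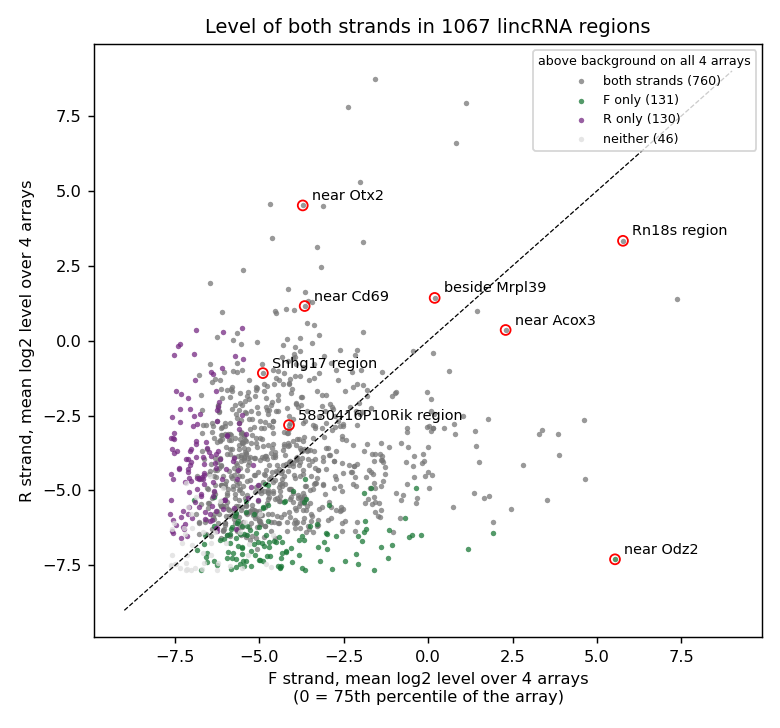
Mean log2 level of the F strand (x axis) and R strand (y axis) over 4 arrays for 1067 lincRNA regions, each point a region, with 0 at the array's 75th percentile, colours for the strands detected on all 4 arrays and the dashed line at equal level. Most points lie below 0 on both axes and off the line, and 8 of the regions described in the text are circled.

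The levels of the strands were largely separate. F minus R, taken on each array so that the array's scale drops out, was fitted for 1044 regions with at least 1 detected strand (detected on both arrays of a genotype). The mean over both genotypes differed from 0 in 924 of them (88.5%) by limma at a Benjamini-Hochberg adjusted p under 0.05, with F higher in 418 and R higher in 506. The median size of the difference was 1.79, a 3.45-fold ratio, and the quartiles of F minus R lay at -2.11 and 1.46. In 724 regions (69.3%) the difference was at least 2-fold with the same sign on all 4 arrays, 314 toward F and 410 toward R, and in 474 it was at least 4-fold. Between arrays F minus R was steady, with a median SD of 0.28.

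A strand difference also holds the affinities of different probes, which the arrays do not separate from RNA level. Probes of 1 strand of 1 region differed by a median SD of 1.63, near the size of the strand difference itself. Of 745 regions with at least 3 probes on each strand, 650 passed the test, and in 107 of the 745 (14.4%) all probes of 1 strand were brighter than all of the other. Using only probes that overlap a probe of the other strand, the sign was the same in 560 of 643 regions, and in 420 of the 447 with a 2-fold difference. These probes also enter the region means, so some of this agreement is built in, and all of it where each strand has 1 probe. Over the 842 regions with both strands tested, the F and R levels had a Pearson correlation of 0.18 and a Spearman correlation of 0.14. These values describe regions that share arrays and neighbouring sequence.

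**Figure D2:**
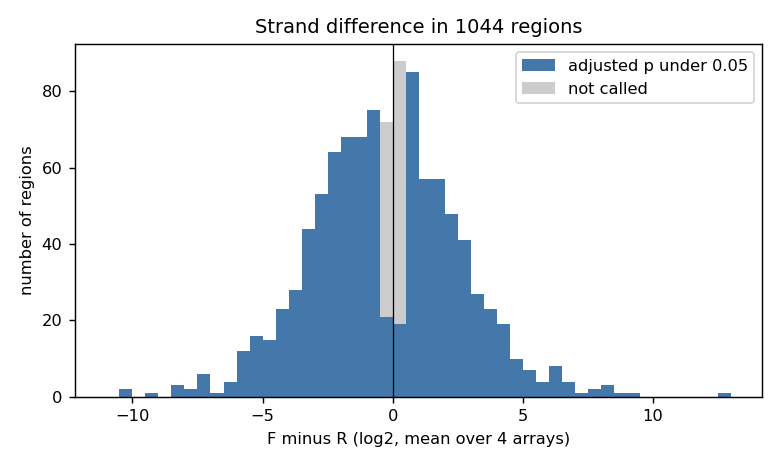
Histogram of F minus R (log2, mean over 4 arrays, x axis) for 1044 regions (y axis, number of regions), with regions past an adjusted p of 0.05 in blue and the others in grey. The 924 regions in blue lie on both sides of 0, 506 toward R and 418 toward F.

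The brightest strands were single stretches that stood out from a dim background. The R strand of chr11:22681800-22707775, read by 1 probe, was at 8.71 and 8.69 in WT and 8.86 and 8.66 in KO, and its F strand lay between -1.77 and -1.36. The R strand of chr7:108209996-108216032 lay between 7.89 and 7.98 on the 4 arrays, that of chr2:167085700-167117795 between 7.76 and 7.84, and that of chr19:56820850-56837925 between 6.53 and 6.64. The F strand of chr12:119825125-119850750 was at 7.40 and 7.53 in WT and 7.25 and 7.25 in KO. The 4 arrays thus lay close together on each of these strands. Both KO arrays lay below both WT arrays on the strands of chr12:119825125-119850750 and chr7:108209996-108216032, by differences of -0.21 and -0.05, and none of these strands passed the test between genotypes.

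The F strand of chr17:39960567-39992817 had a different content. Its 4 probes averaged 5.73 and 5.72 in WT and 5.97 and 5.66 in KO, and the array's own probe for Rn18s, the 18S ribosomal RNA, lies inside the region on the same strand at chr17:39985058-39985117 with levels of 8.53 to 9.29. The R strand of that region read between 2.3 and 4.0. The first array of each genotype was the lower, and 2 of its 5 probes lie in corner blocks of the array where signals were uneven.

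Several regions were read from 1 strand only, by all probes of that strand and by none of the other. The largest bias toward F was in chr11:35805295-35817263, at 5.47, 5.59, 5.56 and 5.52 on the 4 arrays. Its R probe was not well above background on any, so F was at least 2458-fold brighter, taking the array's lowest signal above background for R (or R's own, where higher). chr10:97196521-97207471 (F at 1.17 on average) was at least 119-fold brighter on F, chr1:81632600-81644175 (-1.19) at least 23.3-fold and chr18:12755615-12773365 (-1.61), near the laminin gene Lama3, at least 17.4-fold. All of these rest on 1 probe per strand, and the F probe of chr10:97196521-97207471 lies in a corner block.

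Toward R the best covered example was chr15:68161768-68193518. Its 5 R probes averaged 0.02 and 0.10 in WT and -0.76 and -0.08 in KO, and none of its 5 F probes was above background on any array, which gives at least a 46.8-fold difference. One R probe was in a corner block. chr13:74568375-74601000 was at least 48.6-fold brighter on R, chr3:9401052-9415202 at least 38.8-fold and chr19:61177675-61219875, 9581 bases from a probe of the receptor kinase gene Grk5, at least 37.7-fold. At the other end were regions with both strands well above background by all probes and nearly equal. chr9:65647428-65677119 read -2.06 to -1.56 on F and -1.88 to -1.76 on R, and chr13:24833082-24838462, near the replication licensing inhibitor gene Gmnn, -4.21 to -3.70 on F and -4.27 to -3.51 on R. chr8:124569775-124639500 read -2.28 to -1.83 on F and -2.76 to -2.05 on R. In chr1:167797581-167803031, which holds a probe of Cd247, the T cell receptor zeta chain gene, the 10 F probes averaged -2.72 to -2.56 and the 8 R probes -3.03 to -2.67. None of these 4 passed the test of the strand difference.

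Close to genes, the brighter strand was more often the gene's own. Each region was set beside the nearest probe of a RefSeq mRNA on the array, with distances in mm9 from the probe to the region's edge. Among regions with a 2-fold strand difference on all 4 arrays, the brighter strand was the gene's strand in 41 of 52 (78.8%) where the probe lay inside the region, 151 of 229 (65.9%) within 10 kb, 191 of 353 (54.1%) from there to 100 kb and 48 of 90 (53.3%) farther off. With a 4-fold difference the counts were 35 of 40, 102 of 149, 118 of 223 and 35 of 62. Gene strand minus other strand had a median of 1.52 for regions around a gene probe, 0.74 within 10 kb, 0.12 to 100 kb and 0.12 beyond.

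The share also differed by the side of the gene. Within 10 kb, a region that lay past the gene probe in the gene's direction of transcription had the gene's strand brighter in 130 of 184 cases (70.7%), and a region before it in 21 of 45 (46.7%). From 10 to 100 kb the shares were 91 of 160 (56.9%) past the probe and 100 of 193 (51.8%) before it. Where only 1 strand was detected on all 4 arrays, it was the gene's in 41 of 77 regions up to 10 kb and in 102 of 184 beyond. The other strand could still be detected on some arrays there. With the gene probe inside the region the count was 4 of 11. Array gene probes lie mostly near the 3′ end of a transcript, so a region counted as past the probe may still hold part of the gene, and mm9 gene models were not used here. These are counts with no test, and regions beside the same gene are not independent.

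**Figure D3:**
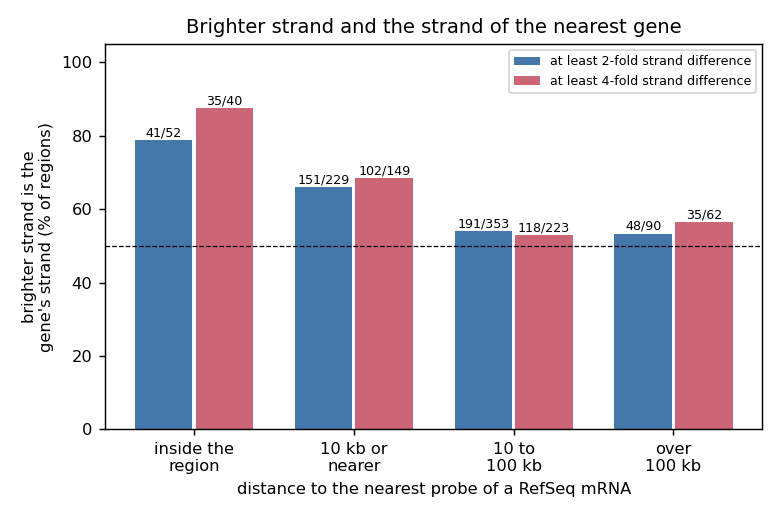
Share of regions (y axis, percent) whose brighter strand is the strand of the nearest gene, by distance to that gene's probe (x axis), for regions with at least a 2-fold (blue) or 4-fold (red) strand difference of 1 sign on 4 arrays; labels give the counts and the dashed line marks 50%. The share is 78.8% inside the region and 65.9% within 10 kb, and near 54% beyond in the 2-fold set.

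Probe sequences tied some regions to promoters. In 51 regions, 98 probes matched exactly, on either strand, within the 250 bases before to 50 after the start of 53 RefSeq genes (GRCm38.p6 promoter sequences), of which 28 were noncoding and 25 protein-coding. Among the 38 regions with 1 such gene and a 2-fold strand difference, the brighter strand was the gene's in 16. Named noncoding genes in the list were Snhg17, Tug1, Mir9-3hg, Pantr2, Kis2 and AI839979. At Snhg17, a small nucleolar RNA host gene, chr2:158169020-158191295 read -1.26, -0.88, -1.04 and -1.16 on R, the gene's strand, in the order WT 1, WT 2, KO 1 and KO 2, and -4.99 to -4.72 on F. At Mir9-3hg, host of a miR-9 precursor, chr7:86651948-86675223 read -2.95 on F, the gene's strand, and -5.98 on R. The gene's strand, R, was the dimmer at Pantr2, Kis2 and AI839979, with F minus R of 0.60, 2.69 and 1.26. At Tug1, chr11:3538125-3554450 read -2.93 on F and -4.0 to -3.5 on R, the gene's strand, although the 3 probes for Tug1 by that spelling inside the region read between -1.36 and 0.53 on that strand, and 5 spelled TUG1 between -0.63 and 1.46. The 9 R probes ranged from -7.59 to -1.74, so a region's mean hides how unequal its probes are.

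Between genotypes no strand passed the adjusted test. KO minus WT was fitted with limma over 23614 features of the whole array, 1886 of them strands of these regions. With Benjamini-Hochberg adjustment 0 features (0.0%) had an adjusted p under 0.05, and the smallest among the strands was 0.31. At an unadjusted p under 0.05, 163 strands (8.64%) were higher in KO and 25 (1.33%) lower, against 7.37% and 3.56% of all features. The KO and WT arrays did not overlap in 889 strands (47.1%), against 47.5% of all features. Of the 889 strands, 747 were higher and 142 lower in KO. Over all features, 11214 did not overlap, 6419 of them higher and 4795 lower in KO. The median KO minus WT was 0.20 over the strands, against 0.04 over all features and 0.01 over genes. In lincRNA regions with probes for 1 strand it was 0.16. Of those, 9.85% had p under 0.05 before adjustment with KO above WT, and 2.01% with KO below. The tilt was thus not particular to regions read from both strands. Genes were represented by their brightest probe and strands by the average of their probes, so these medians also differ in how they were formed. With 2 arrays against 2, an exact permutation test of a single strand cannot go below a two-sided p of 0.333.

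This tilt varied with signal level and with scaling. The median KO minus WT was 0.25 for strands below a level of -4 (0.15 for genes), 0.16 from -4 to -2 (0.16 for genes), 0.06 from -2 to 0 (0.02) and -0.01 above 0 (-0.03). The lowest signal counted as above background lay at -6.83 and -5.55 on the WT arrays and at -5.65 and -4.90 on the KO arrays, so the dimmest strands were read near a floor that differed between arrays; its part in the result was not tested. Under median scaling, which moved the median of all features to -0.12, the strand median was 0.03 with 70 strands higher and 67 lower, and under quantile normalization it was 0.01 with 61 higher and 74 lower. Normexp background correction went the other way, with 976 strands higher and 11 lower. Without WT replicate 1 there were 51 higher and 15 lower, without WT replicate 2 290 and 13, without KO replicate 1 91 and 29, and without KO replicate 2 107 and 25. Counts over all features were not taken under these alternatives, so the strand counts there have no array-wide share beside them. The first knockout array lacked the multiplicative detrending that the other 3 received. The arrays of each genotype shared a row of the slide, so genotype and row cannot be told apart.

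The strand with the smallest p lay in chr19:53517903-53540753. Its R strand was at -3.62 and -4.17 in WT and at -2.0 and -1.48 in KO. Both KO arrays were above both WT arrays, by 2.15 ± 0.28 (SE) on the log2 scale or 4.45-fold (adjusted p = 0.307, limma with Benjamini-Hochberg). All 10 R probes were higher in KO without overlap, by 1.66 to 2.62, and with normexp KO minus WT of the R strand was 1.27. The F strand was at -4.30 and -4.50 in WT and -3.84 and -3.85 in KO, a difference of 0.55 ± 0.14 (SE). Inside the region the array also has 2 probes of the transcript 5830416P10Rik on the R strand. The brighter read -0.27 and -1.10 in WT and 1.32 and 1.13 in KO, a difference of 1.91 ± 0.31 (SE, limma adjusted p = 0.333), and the dimmer read -2.45 and -3.30 against -0.66 and -0.68. Of the R probes, 2 match the promoter of 4833407H14Rik from the other strand.

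Of the other strands with the smallest p toward KO, most were dim. The R strand of chr1:185808525-185826139 was at -2.63 and -2.71 in WT and -1.53 and -1.72 in KO (difference 1.05 ± 0.14 SE, limma adjusted p = 0.307), and its F strand at -6.06 and -4.50 in WT and -3.97 and -4.13 in KO. The groups did not overlap on either strand. In chr3:26975624-26988699, 7579 bases from a probe of Ect2, a guanine nucleotide exchange factor of cell division, R was at -4.68 and -4.44 in WT and -3.62 and -3.70 in KO, and F at -7.01 and -6.69 against -6.01 and -6.04. The F probe that was above background differed by -0.08, and the rest of the 5 F probes were above background on no array. The R difference of 0.90 was 0.47 with normexp. Ect2 itself differed by 0.06. In chr16:50715231-50841124 the F strand was at -5.37 and -4.99 in WT and -3.91 and -4.09 in KO. That difference of 1.18 ± 0.19 (SE) had the same sign in all 6 probes and was 0.52 with normexp. Of the 6, 4 were above background on all 4 arrays, and the dimmest, above background on none, differed by 1.55. R read -5.45 and -4.67 against -4.86 and -5.05 and overlapped. A probe of 5330426P16Rik inside the region on the R strand read 2.30 to 2.51, far above the 3 averaged R probes. The F strand of chr18:5119300-5181600, beside the actin-binding supervillin gene Svil, differed by 0.68, but 1 of its 5 probes, in a corner block, differed by 2.39, and without the corner blocks the value was 0.25. The F strand of chr7:131819366-131852866 differed by at least 1.70-fold, since no probe of it was above background in WT.

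The strands with lower signal in KO and the smallest p differed by -0.82 to -0.51. The R strand of chr6:86776350-86799379 was at -2.03 and -1.77 in WT and -2.61 and -2.59 in KO (difference -0.70 ± 0.15 SE, limma adjusted p = 0.362). A probe of 2610306M01Rik on that strand inside the region read -1.28 and -0.94 in WT and -1.92 and -1.79 in KO, so both measures of this strand were lower on both KO arrays. The F strand of chr1:81632600-81644175 was at -0.99 and -0.68 in WT and -1.49 and -1.60 in KO. The F strand of chrX:20555593-20591971 was at -2.40 and -2.22 in WT and -2.84 and -2.95 in KO, and a probe of A230072C01Rik inside it on the same strand differed by -0.36 ± 0.16 (SE). The F strands of chr13:28477490-28985604, beside the transcription factor gene Sox4, and of chr15:83266264-83294664 were between -6.52 and -5.87 on every array and differed by -0.52 and -0.51. Inside chr13:28477490-28985604 the array's Gm11362 probe on the F strand read 6.67 to 6.92, far above the 5 averaged probes of that strand. With normexp background correction those values were 0.15 and 0.12, so their direction rested on the background step.

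The strands of a region were then compared in how far they differed between genotypes. This interaction, KO minus WT of F minus R, cancels array scale and most of the probe affinity. In 842 regions with both strands tested, 0 (0.0%) passed an adjusted p under 0.05 and the smallest was 0.078 (limma). At an unadjusted p under 0.05 there were 64 (7.6%), 36 toward F and 28 toward R, and in 304 (36.1%) the arrays of the genotypes did not overlap. The median was 0.01 and 10 regions reached 1 in size. KO minus WT had the same sign on both strands in 569 of 842 regions. It was above 0 in 1436 of the 1886 strands, so many signs would be shared by that tilt alone. Over all features KO minus WT was above 0 in 13135 of 23614, and over regions with probes for 1 strand in 1373 of 1940. At an unadjusted p under 0.05 on each strand, 10 regions were higher on both, 0 lower on both and 2 opposite. The brighter strand changed from 1 genotype to the other on every array in 9 regions, all with strands within 0.62 of each other.

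The smallest interaction p values belonged to regions already met. In chr19:53517903-53540753, F minus R was -0.68 and -0.33 in WT and -1.85 and -2.37 in KO, an interaction of -1.60 ± 0.29 (SE, limma adjusted p = 0.078). This region passed without the corner blocks of the array (limma adjusted p = 0.036), with a robust trended prior (0.038) and with overlapping probes only (0.011). Over all alternatives the adjusted p ran from 0.00090 to 0.997. The lowest came without KO replicate 1, where 1 KO array is assumed to vary as WT and the other regions do, and the highest without WT replicate 1. In chr5:35975265-35982561, 18991 bases from a probe of the peroxisomal oxidase gene Acox3, F was at 2.01 and 1.80 in WT and 2.38 and 2.98 in KO, and R at 0.92 and 0.61 in WT and 0.07 and -0.18 in KO. F was thus higher and R lower on both KO arrays, by 0.78 ± 0.25 and -0.82 ± 0.18 (SE), and all 4 probes of each strand had those signs without overlap. The interaction was 1.60 ± 0.31 (SE, limma adjusted p = 0.079), and it passed without the corner blocks (0.042). Its adjusted p over the alternatives ran from 0.00019 to 0.997, at the same settings as for chr19:53517903-53540753 and with the same assumption for the lowest.

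The strands had opposite signs in chr14:49314574-49358174 too, which lies 36660 bases from a probe of the homeobox gene Otx2. The R strand, 1 probe, was at 4.71 and 4.81 in WT and 4.17 and 4.36 in KO, and the F strand, 2 probes, at -4.06 and -3.87 in WT and -3.51 and -3.43 in KO. The interaction was 0.98 ± 0.27 (SE, limma adjusted p = 0.458). The brighter probe of Gm3552, inside the region on the R strand, read only -2.76 to -2.38, so the bright R signal rests on its 1 probe. In chr6:86776350-86799379 the R strand was lower and F overlapped, with an interaction of 1.04. In chr16:50715231-50841124 it was 1.08, but -0.35 with the brightest probe of each strand. Toward R the others were chr5:112297381-112328281 at -1.22, chr7:6296401-6311486 at -0.94 and chr5:119945358-119962612 at -0.87, all with a limma adjusted p of 0.492; with the brightest probe of each strand, chr5:119945358-119962612 gave 0.24. Without KO replicate 2 there were 7 regions past the threshold and without KO replicate 1 there were 4, each with the spread of the lone KO array assumed, and chr19:53517903-53540753 and chr5:35975265-35982561 were among the 4 and not among the 7.

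**Figure D4:**
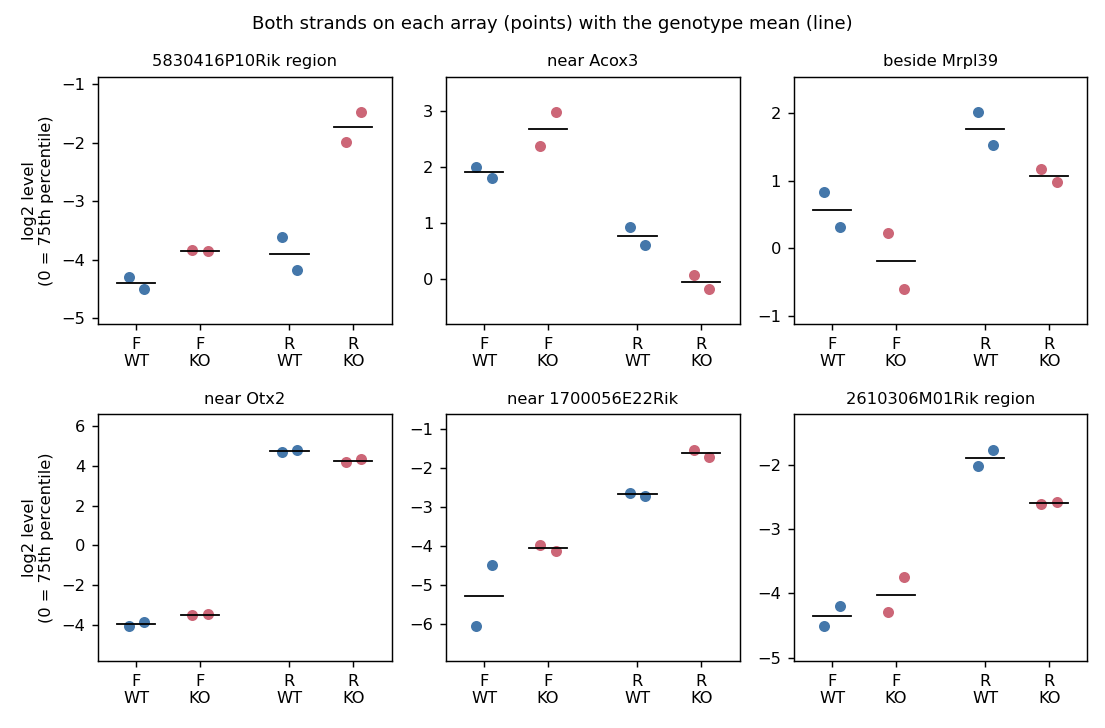
Log2 level (y axis, 0 at the array's 75th percentile) of the F and R strands in 6 named regions on the 2 WT arrays (blue) and 2 KO arrays (red), with the genotype mean as a line; y axes differ. In the 5830416P10Rik region the R strand is 2.15 higher in KO and F 0.55, and near Acox3 F is 0.78 higher and R 0.82 lower.

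**Figure D5:**
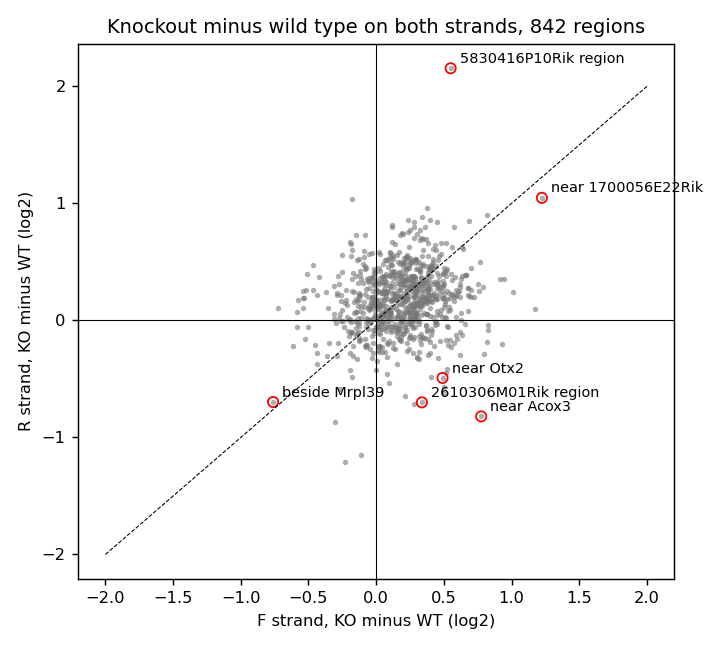
KO minus WT (log2) of the F strand (x axis) against the R strand (y axis) for 842 regions, each point a region, with named regions circled and the dashed line at equal difference. Most points form 1 cloud near the median of 0.20, and the 5830416P10Rik region lies apart at 0.55 and 2.15.

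The region closest to the deleted microRNA had lower signal on both strands in KO. In the gene order of RefSeq, Mir155hg lies beside Mrpl39, which encodes a mitochondrial ribosomal protein, and chr16:84702353-84710928 is 7619 bases from a RefSeq mRNA probe of Mrpl39. It is also the only one of these regions within 1 Mb of that gene. R was at 2.02 and 1.53 in WT and 1.17 and 0.98 in KO, a difference of -0.70 ± 0.21 (SE, limma adjusted p = 0.413). F was at 0.83 and 0.32 in WT and 0.22 and -0.60 in KO, a difference of -0.76 ± 0.35 (SE), and both KO arrays were below both WT arrays on each strand. Leaving out 1 array moved the F value between -1.18 (without KO replicate 1) and -0.35 (without KO replicate 2), and R was -0.46 without WT replicate 1. All 3 probes of each strand were lower, with values from -1.0 to -0.64 on F and from -0.73 to -0.67 on R. The interaction was -0.06 ± 0.29 (SE), so a difference between the strands was not detectable, and its sign changed with the setting. Mrpl39 itself was lower by 1.16 ± 0.15 (SE). One F probe lies in a corner block. Whether this region holds part of Mir155hg could not be read from these files.

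Other regions lay beside genes of T cell biology. Within 100 kb of a probe of 72 genes of T cell activation, helper differentiation and miR-155 targets, there were 12 regions with 11 of the genes. Of their 24 strands, 4 were higher and 2 lower in KO at an unadjusted p under 0.05, with a median difference of 0.11, against 7.37% and 3.56% of all features. Beside Cd69, an early activation marker, the 10 R probes of chr6:129151512-129208737 averaged 1.22 and 1.02 in WT and 1.13 and 1.25 in KO, and the 10 F probes -3.71 and -3.81 against -3.45 and -3.67. R, which is the strand of Cd69, was thus 28.1-fold brighter (F minus R -4.81 ± 0.14 SE, past the threshold), and its arrays overlapped between genotypes. Beside Socs3, a cytokine signalling inhibitor, F of chr11:117835849-117842574 was at -3.63 and -3.94 in WT and -4.26 and -4.19 in KO. It is 1 of the 2 strands counted as lower (difference -0.44), and with normexp its value was 0.035.

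Beside the nuclear receptor gene Nr4a1, R of chr15:101084597-101095097 was at -5.43 and -5.32 in WT and -4.81 and -4.82 in KO. Beside the chemokine receptor gene Ccr4, R of chr9:114412295-114418384 was at -5.51 and -5.77 in WT and -4.76 and -4.92 in KO. Both were dim, and both KO arrays were above both WT arrays. With the brightest probe of the strand the differences, 0.56 and 0.80, were 0.17 and 0.14. The second region beside Socs3, chr11:117768049-117807949, and those beside Il12rb2 (chr6:67155508-67216941), a receptor chain for IL-12, and Bcl6 (chr16:23992037-24001037), a repressor of follicular helper cells, had no strand at an unadjusted p under 0.05. The rest lay beside Ccr7, Pdcd1, Il5 and Myc. Of these, F of chr11:99048975-99062425, 43365 bases from a probe of the lymph node homing receptor gene Ccr7, differed by 0.45 ± 0.12 (SE), and R of chr1:95871175-95886625, 48439 bases from a probe of Pdcd1, which encodes the inhibitory receptor PD-1, by 0.48 ± 0.14 (SE). Both had a p under 0.05 before adjustment and none after it.

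Long noncoding RNA genes known by name gave a reference for these regions. Of 63 listed genes, 47 were on the array and 35 were tested. None had an adjusted p under 0.05 in limma. At p under 0.05 before adjustment, 2 were lower and 0 higher, with a median of -0.00, against 7.37% and 3.56% of all features. The lower ones were snoRNA host genes, Snhg5 at 1.1 and 1.15 in WT and 0.63 and 0.84 in KO, and Snhg12 at 4.04 and 3.80 in WT and 3.46 and 3.47 in KO. Gas5, another snoRNA host, lay between 5.63 and 5.95 on the 4 arrays and Neat1, the scaffold RNA of paraspeckles, between 5.31 and 5.76, levels that few lincRNA strands reached.

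T cell markers were high on every array, while Th17 genes were lower on the KO arrays. Of 11 listed T cell and Th17 genes 10 were tested, with Cd3e between 5.91 and 6.14 and Cd4 between 5.02 and 5.35, and 5 of the 10 were lower and 0 higher in KO at an unadjusted p under 0.05, against 3.56% and 7.37% of all features. The reporter gene's own locus, Il17f, was at 3.68 and 3.78 in WT and 1.52 and 1.92 in KO, and Il17a at 2.10 and 1.59 in WT and -0.62 and -2.02 in KO. Of other cell types, the B cell markers Cd79a and Pax5 were below -2 on each array and neither differed at an unadjusted p under 0.05, nor did 4 myeloid and 1 erythroid marker. Among these the myeloid genes Itgam, at 3.65 to 3.71, and Csf1r, at 0.67 to 1.01, were well above the level of most lincRNA strands, and Klrd1, an NK cell receptor gene, lay between 3.39 and 4.20. Cd8a was at -3.89 and -3.73 in WT and -2.64 and -2.37 in KO. Cd8b1, the gene of the other CD8 chain, was at -2.05 and -1.48 in WT and -1.82 and -1.97 in KO. Its difference was -0.13 and that of Klrd1 -0.47, so the tested CD8 and NK genes did not share a direction. The part of these genes in the strand results was not tested.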

How the data were processed

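RNA of 4 samples was hybridised to 1-colour Agilent arrays. Each array's scanner file, as the authors deposited it, holds linear intensity values, background-subtracted and detrended per the file headers. The software was Agilent Feature Extraction, version 10.5.1.1 in the submitters' processing notes. The deposited files also hold flags per spot, among them that for signal well above background, and the fitted detrending surface as a linear ratio per the file headers. A table of log2 values for all samples was also deposited. Each of its columns differed from the log2 processed signal of its array by 1 constant, within 0.001 for 100% of probes, and all had a median of 5.54; how it was made is not given in the sources used here, and it served as an alternative. Positions are in mm9, per the file headers.

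Control spots and outlier spots were left out. Log2 processed signal was shifted by each array's 75th percentile, and probes were averaged per region and strand, while genes were represented by their brightest probe. Depth is signal over background, 63.3% to 69.6% of spots per array, with 0 saturated, and precision is limited by having 2 arrays per genotype. On the first knockout array the detrending surface had been applied to 0.395% of spots above background, against 100% on the others. A feature entered the fit if it was above background on both WT or both KO arrays. Fits were made with limma 3.58.1 in R 4.3.3 (lmFit, eBayes, 2 residual degrees of freedom), tested on simulated data first. The F minus R fits used the same arrays.

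Named regions are the 6 strands of each direction with the smallest p and no overlap, the 4 regions of each direction for the interaction, the 6 brightest strands, the 4 regions most biased toward each strand, the 4 most equal, and those near listed genes. Other transcripts inside named regions were looked up after their values were seen, as were the regions at promoters. Members, lists and tests were chosen with earlier results of these data known. Alternatives changed the background correction, scaling, detection rule, probe set, prior and replicates.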

Additional observations from a re-analysis of the deposited data

Results flagged for a closer look

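The array holds 13 further probes in 3 lincRNA regions whose names give no strand, which no comparison above used. Of these, 7 were well above background on all 4 arrays and 4 on none, and the highest had a mean log2 level of -0.34. Groups of 2 arrays are too small to look for an array that stands apart within a group.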

How the results depend on the processing

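The strand difference held its direction and its side of the threshold under every alternative that gave a value in the 10 regions followed (8 with 1 strand detected, and those beside Cd69 and Mrpl39). Past the threshold were 924 regions, and 545 (248 F, 297 R) with overlapping probes only, where fewer regions have probes; a 2-fold difference on all arrays held in 457 then and in 326 with normexp. Both strands were detected in 337 regions and 1 strand in 466 when a share of 0.5 of the probes had to pass, and both in 70 when all had to. The count of strands higher in KO at p under 0.05 was 976 with normexp, 97 with that share, 70 with the deposited matrix or median scaling, 61 with quantile normalization and 65 with the robust prior, and 51 to 290 when 1 replicate was left out. The count lower was 11 with normexp, 67 with the matrix or median scaling, 74 with quantile normalization, 15 with the robust prior and 13 to 29 without 1 replicate. These counts were not taken over all features. The median KO minus WT of the strands was 0.034 with the matrix or median scaling and 0.012 with quantile normalization. The robust prior called 92 of 23614 features, and 1 of these 1886 strands, R of chr19:53517903-53540753 (limma adjusted p = 0.033). Interaction calls were 2 without corner blocks, 1 with overlapping probes only, 1 with the robust prior and 0 to 7 without 1 replicate; at unadjusted p they numbered 139 with normexp, 33 with that share, 23 with overlapping probes only and 20 to 62 without 1 replicate. Named long noncoding RNA genes at p under 0.05 numbered 5 with normexp, 6 with the matrix or median scaling and 0 to 4 without 1 replicate. The cause was not tested.

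With the replicate number as a block, 108 strands were higher and 17 lower in KO, 1 named long noncoding RNA gene had p under 0.05, no strand or interaction passed the adjusted test, and 920 strand differences passed it. The same-numbered arrays' deviations had a correlation of -0.00 over all features and -0.03 over these strands, so they share only a number. Direction reversed with normexp for the F strands of chr13:28477490-28985604 (0.15), chr15:83266264-83294664 (0.12) and chr11:117835849-117842574 (0.035), and with the brightest probe for the interactions of chr16:50715231-50841124 (-0.35) and chr5:119945358-119962612 (0.24). The interaction of chr16:84702353-84710928, -0.06, was 0.047 with the brightest probe, 0.0022 with normexp, 0.055 without corner blocks and -0.38 to 0.25 without 1 replicate. Strands near the background floor have the least precise values.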
